A study of Oryza sativa with 35 samples.

Results

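Chitinases are enzymes that cut chitin, the polymer of N-acetylglucosamine in the walls of fungi and the shells of insects. Here 6 members of the rice family were followed here across the organs of the flowering plant: Cht4, Cht5, Cht6, Cht7, Cht8 and Cht11. They were chosen by their gene annotation on the Affymetrix Rice Genome Array, where 8 of 57381 probe sets belong to these 6 of 17905 annotated genes. One probe set was used per gene, the brightest where a gene had several, and only Cht8 had more than 1. All 6 were among the 38666 probe sets bright enough to be tested, but Cht7 passed that filter through the flower, since 31 of its 32 other arrays lay below the median of all values (5.83 in log2).

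The series holds 35 arrays of total RNA from Oryza sativa cultivar Nipponbare, grown untreated on soil in an irrigated greenhouse with added light and sampled at heading. The flower (before anthesis), the panicle branch, node I and node II had 3 arrays each, as did both ends of internode I, the uppermost stem segment. So did 3 zones of the flag leaf blade (tip, middle and base) and the sheath top, while the sheath base had 2. Whole blades of the flag leaf, of leaf 2 and of leaf 4 (counted down from the flag leaf) had 1 array each and enter no test. Repeats are labelled as biological, but separate plants are not named, so p-values cover only the spread among these arrays, which may be technical. Nothing in the labels speaks of infection or wounding. Signals are log2 values after quantile normalization, differences carry the standard error of limma's fit over the 32 replicated arrays, and a call means an adjusted p below 0.05 plus at least a 2-fold change.

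Plant chitinases are grouped into classes by their domains, and many accumulate when a fungus attacks. The chitin fragments they release are bound at the cell surface by the LysM receptor CEBiP, which acts with the receptor kinase CERK1 to start defence signalling. Several chitinases are also made in healthy flowers, stems and leaves, so their basal levels differ by organ. In the reference table of rice genes Cht4 and Cht5 lie close together on a chromosome, with 2 genes between them. Cht7 is the direct neighbour of another chitinase gene, listed as both Cht1 and Cht9.

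Each of the 6 genes differed among the 11 replicated groups (limma's F test, largest adjusted p = 9.24e-06 for Cht8), as did 80.4% of all probe sets tested. They did so in different ways. Cht7 was a flower gene, Cht4 and Cht5 were highest in the panicle branch and the sheath top, Cht8 was lowest at the bases of internode and sheath, and Cht6 and Cht11 had their highest means in the middle of the flag blade. Of the 55 pairs of groups, 38 were called for Cht11, 30 for Cht6, 29 for Cht4, 28 for Cht5, 26 for Cht8 and 11 for Cht7, and over the 55 pairs the share of probe sets called was 0.0259% to 42.3% (median 24.8%). For Cht7 the F test and the pairs with the flower are descriptions only, because it passed the filter through the flower. Levels are compared below within a gene only, because signals of different probe sets are not on 1 scale. Where arrays of 2 groups are said not to overlap, this only describes the values. The share of all probe sets without overlap was not counted. In tissue RNA, fewer cells of a type and less RNA per cell cannot be told apart.

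**Figure D1:**
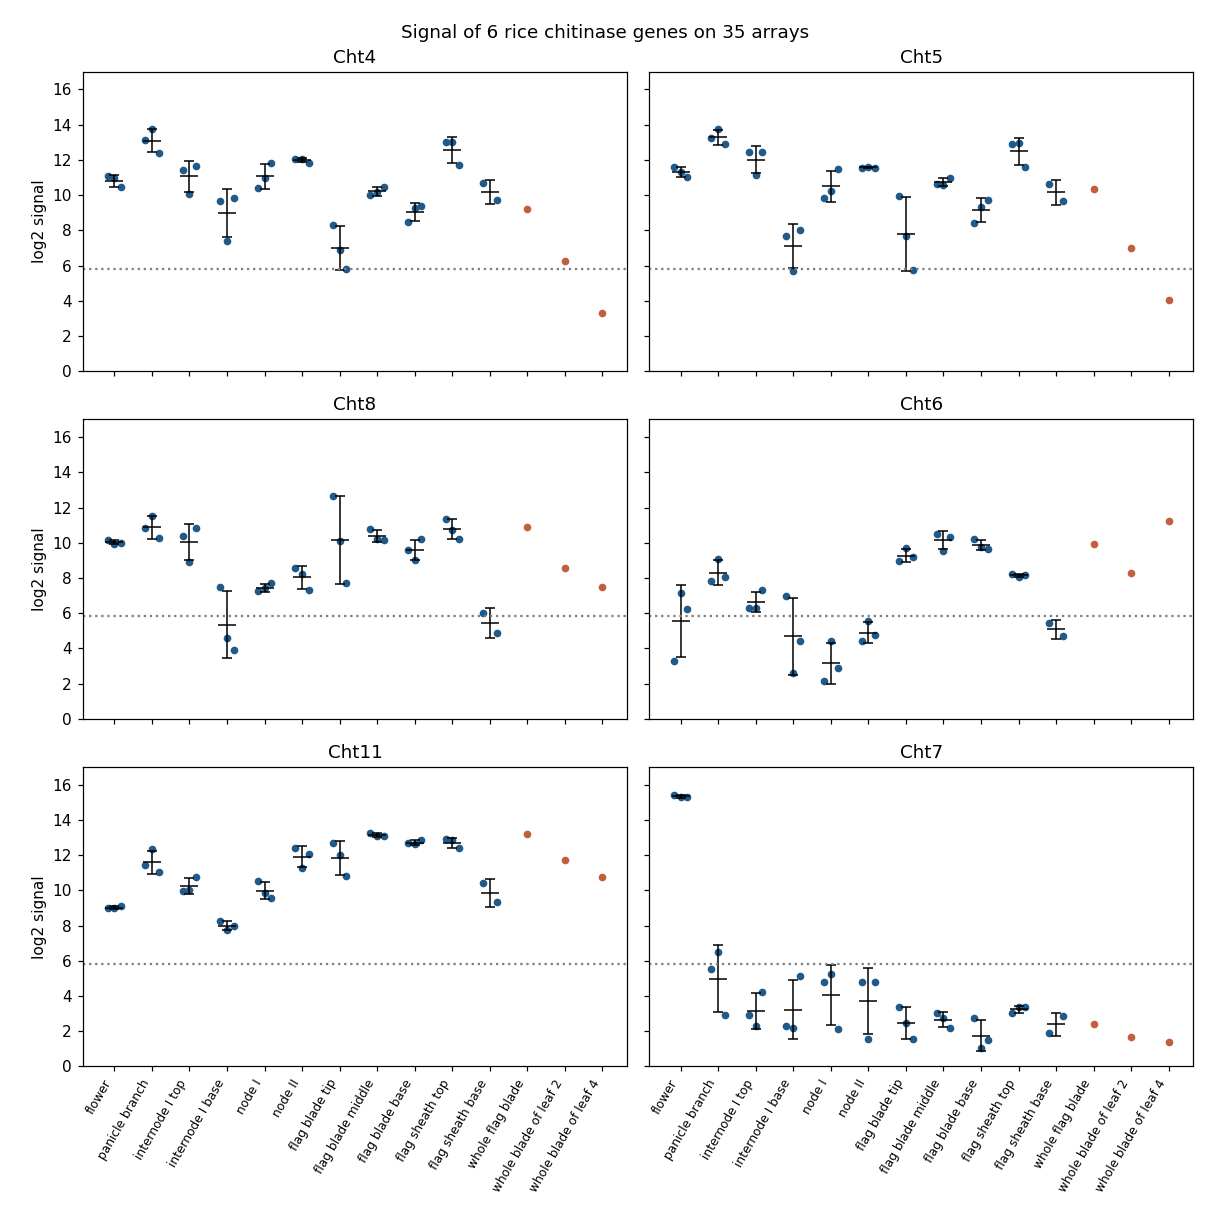
Log2 signal of each chitinase gene (y axis) in 14 sample groups (x axis); blue points are replicated arrays, black bars the group mean with its SD, orange points the single whole-blade arrays, and the dotted line the median of all values (5.83). Cht7 stands at 15.28 to 15.40 in the flower and at 6.52 or lower elsewhere, while the other genes vary within a smaller range.

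Several marker genes followed the organ labels, and others did so less sharply. The floral MADS-box gene MADS3 had a mean of 10.82 in the flower and at most 5.18 elsewhere, and MADS58 one of 12.31 against at most 5.36. The silicon transporter gene Lsi2 read 12.43 in node I and 12.30 in node II, and at most 4.04 in other groups. The Rubisco small subunit gene RBCS read 14.85 to 14.94 in the flag blade and 8.07 and 7.50 in the nodes, and the secondary wall cellulose synthase gene CESA4 was highest at the internode base (14.59). The light-harvesting gene CAB2R did not follow the green organs, with group means from 14.35 to 15.38. The floral gene MADS16 had a mean of 14.05 in the flower, but also 11.90 in node II. The summed signal of 3 node transporter genes was 25800 to 41500 in node II and still 11600 to 26400 at the sheath base. Arrays of a group correlated at r = 0.864 to 0.951 across probe sets.

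Cht7, known from earlier work in rice as a class I chitinase expressed mainly in the flower, read 15.40, 15.28 and 15.30 on the 3 flower arrays. On the deposited linear scale these are signals of 38600 to 46700, and no other array exceeded 101. The flower arrays lay far above the rest, with no overlap with any other group. On log2(signal + 16), which damps low signals, the flower mean exceeded those of the 10 other groups by 9.58 to 11.04. These sizes are a description, because Cht7 passed the filter through the flower and the other levels lie where low signals set the size of a difference. The table carries no flags for saturated or undetected probe sets.

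Outside the flower Cht7 signals were too low to rank. The panicle branch read 5.55, 6.52 and 2.90 and overlapped with node I (4.79, 5.27 and 2.12), and the 2 groups differed by 0.93 ± 0.97 (adjusted p = 0.485). Of the 45 pairs that leave out the flower, only panicle branch against flag blade base was called (3.24 ± 0.97, adjusted p = 0.0147, where 8.05% of probe sets were higher), and on log2(signal + 16) that difference was 1.46. Both nodes averaged were called above the flag blade (1.60 ± 0.62, adjusted p = 0.0301), but on log2(signal + 16) they differed by 0.70, under the 2-fold limit. That call was also lost without node I replicate 1 (1.42, adjusted p = 0.0769) or 2 (1.30, 0.0974), node II replicate 1 (1.33, 0.0908) or 3 (1.33, 0.0919), flag blade tip replicate 3 (1.45, 0.0575) or flag blade base replicate 2 (1.48, 0.055).

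Among other named genes, the patterns most like that of Cht7 over the 11 group means were those of GDH2, a glutamate dehydrogenase gene (r = 0.983), and of the floral MADS-box genes MADS24 (r = 0.976) and AGL6 (r = 0.964). These correlations describe 11 group means from 1 set of arrays, out of 2348 named genes compared, and rest on the single high flower value. Group means spanned 9.54 to 12.92 for GDH2, 3.50 to 13.61 for MADS24 and 2.07 to 13.43 for AGL6. Those of Cht7 spanned 1.75 to 15.33. The neighbouring gene Cht1/Cht9 was also highest in the flower, with a mean of 9.45, followed by node I (6.55) and node II (5.63). It was higher in the flower than in the panicle branch by 4.77 ± 1.07 (adjusted p = 0.000873).

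Against the panicle branch that bears it, the flower was lower in 4 of the 5 genes beside Cht7 and higher in 0, where 12.7% of all probe sets were higher and 15.9% lower. Other chitinase genes, described at the end, did not share that direction. Cht4 read 11.06, 11.00 and 10.44 in the flower and 13.13, 13.73 and 12.40 in the panicle branch, a difference of -2.25 ± 0.61 (adjusted p = 0.00457). Cht11 read 8.99, 8.97 and 9.10 in the flower against 11.46, 12.32 and 11.02 (-2.58 ± 0.40, adjusted p = 1.54e-05). Every flower array lay below every panicle branch array for the 4 genes called lower. This held for Cht8, which was not called, only by little (10.18 against 10.25). At a second probe set of Cht8 the 2 groups overlapped, with 9.95 to 10.51 in the flower and 9.63 to 11.37 in the panicle branch.

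Cht5 differed by -1.96 ± 0.73 (adjusted p = 0.033) between flower and panicle branch, Cht6 by -2.75 ± 0.85 (adjusted p = 0.0113, and -2.21 on log2(signal + 16)), and Cht8 by -0.84 ± 0.87 (adjusted p = 0.471), with a 95% interval from -2.65 to 0.96. The flower arrays of Cht6 were far apart, at 3.28, 7.16 and 6.25. Its call was lost without flower replicate 1 (-1.61, adjusted p = 0.123) or panicle branch replicate 2 (-2.36, 0.0563), and in the fit of these 2 groups alone (-2.75, 0.0957). That of Cht5 was lost without flower replicate 1, 2 or 3 (-2.10, -1.97 and -1.81; adjusted p = 0.0502, 0.0663 and 0.0926) or panicle branch replicate 1 or 2 (-2.00 and -1.74; 0.0621 and 0.106). Of the green tissue genes 3 of 4 were lower in the flower, and 3 of 3 secondary wall genes were higher; their part in these differences was not tested.

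Cht4 and Cht5, the 2 genes that lie close together, shared their highest organs. Cht4 had its highest mean in the panicle branch (13.09 ± 0.66, SD, n = 3) and next in the sheath top (13.00, 12.99 and 11.73). Cht5 was likewise highest in the panicle branch (13.22, 13.74 and 12.91) and the sheath top (12.89, 12.97 and 11.59). These 2 groups overlapped for both genes and did not differ by the test (0.51 ± 0.61, adjusted p = 0.609 for Cht4, and 0.81 ± 0.73, adjusted p = 0.478 for Cht5). Among the replicated groups, the blade tip and the internode base had the lowest means for both genes, although for Cht4 the blade base (9.05) was close to the internode base (8.97). At the tip Cht4 read 8.32, 6.90 and 5.83, and at the internode base Cht5 read 7.69, 5.68 and 8.00.

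Each gene was the one most like the other among the 2348 named genes (r = 0.914 over 11 group means), and over all 35 arrays they correlated at r = 0.94. The next most like were the malic enzyme gene ME6 for Cht4 (r = 0.893) and LST8 for Cht5 (r = 0.899), then HOX20 for Cht4 (r = 0.89) and IRL8 for Cht5 (r = 0.856). The group means of ME6 spanned only 12.20 to 13.10 and those of LST8 9.92 to 10.37, against 7.01 to 13.09 for Cht4 and 7.12 to 13.29 for Cht5. Along the order of its group means Cht4 showed 1 difference between neighbours, internode base over blade tip (1.96 ± 0.61, adjusted p = 0.00894, where 18.8% of probe sets were higher), although arrays of the 2 groups overlapped. No neighbours in the order of Cht5 differed.

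**Figure D2:**
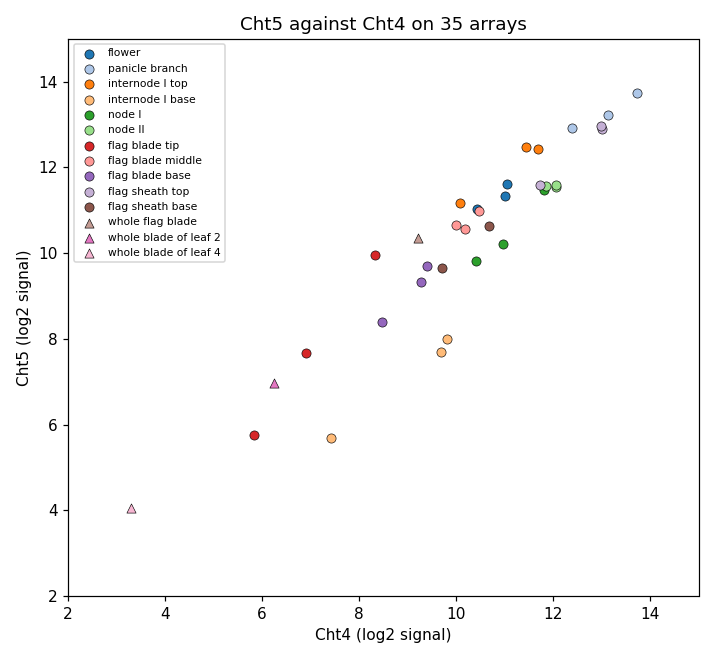
Log2 signal of Cht5 (y axis) against Cht4 (x axis) on each of the 35 arrays, coloured by sample group, with triangles for the single whole-blade arrays. The points follow a common line (r = 0.94), from the whole blade of leaf 4 at 3.29 and 4.06 up to the panicle branch, and the 3 internode base arrays lie to the right of it.

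Between the panicle branch and the top of internode I below it no member was called, where 3.43% of probe sets were. Cht4 differed by 2.02 ± 0.61 (adjusted p = 0.0614) and Cht11 by 1.36 ± 0.40 (adjusted p = 0.0525), each higher in the panicle branch. For Cht11 all 3 panicle branch arrays lay above every internode top array. Both passed without panicle branch replicate 3 (Cht4 2.36, adjusted p = 0.0496; Cht11 1.65, 0.0317), Cht11 without internode top replicate 3 (1.63, 0.0429), and both on log2(signal + 16) (2.01 and 1.35; 0.0388 and 0.0418). With a trended and robust prior both passed too (2.02 and 1.36; 0.0476 and 0.0353).

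At the base of internode I, the stem segment below the panicle, 4 of the 6 genes were lower than at its top and 0 were higher, where 18.7% of probe sets fell and 13.8% rose. The median of the 6 differences was -2.17, and that of all probe sets -0.12. Cht5 fell by 4.90 (SE 0.73, adjusted p = 6.66e-06), from 12.47, 11.16 and 12.43 at the top. Cht8 read 10.39, 8.90 and 10.86 at the top and 7.49, 4.61 and 3.91 at the base, a difference of -4.71 ± 0.87 (adjusted p = 9.85e-05, and -4.10 on log2(signal + 16)). All 3 base arrays lay below all top arrays for Cht4, Cht5, Cht8 and Cht11.

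Cht11 differed by -2.25 ± 0.40 (adjusted p = 6.44e-05) and Cht4 by -2.10 ± 0.61 (adjusted p = 0.00694). Cht6, at 7.00, 2.61 and 4.43 at the base, differed by -1.96 ± 0.85 (adjusted p = 0.0627) and did not pass, and Cht7 did not either (0.06 ± 0.97, adjusted p = 0.966). Without base replicate 2 Cht4 lost its call (-1.31, adjusted p = 0.0795), and without base replicate 1 Cht6 gained one (-3.12, adjusted p = 0.00287). In the fit of the 2 internode groups alone Cht4 was not called (-2.10, adjusted p = 0.0943).

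The base of the flag leaf sheath stood in the same relation to its top. Here 5 genes fell and 0 rose, against 9.03% and 8.53% of probe sets, with a median of -2.61 over the 6 genes and -0.05 over all. Cht8 read 11.36, 10.71 and 10.24 at the top and 6.02 and 4.85 at the base (-5.33 ± 0.98, adjusted p = 0.00027). The base mean of 5.44 is under the median of all values, and on log2(signal + 16) the difference was -4.86. Cht11 read 12.91, 12.83 and 12.40 at the top and 10.43 and 9.31 at the base (-2.84 ± 0.45, adjusted p = 6.1e-05). Cht6 read 8.21, 8.06 and 8.15 at the top and 5.47 and 4.71 at the base (-3.05 ± 0.95, adjusted p = 0.0183, and -2.56 on log2(signal + 16)). Cht7 was not called (-0.86 ± 1.08, adjusted p = 0.622).

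Cht4 differed by -2.39 ± 0.69 (adjusted p = 0.011) and Cht5 by -2.34 ± 0.81 (adjusted p = 0.0345). Without base replicate 2 only Cht8 and Cht11 stayed called, as Cht4 (-1.91, adjusted p = 0.182), Cht5 (-1.84, 0.307) and Cht6 (-2.67, 0.184) did not pass with the 1 remaining base array, which is then assumed to vary like other groups. Cht5 also failed without top replicate 1 (-2.14, 0.0931) or 2 (-2.09, 0.102), with no filter (-2.34, 0.0539), with array medians set equal (-2.13, 0.0582) and in the fit of these 2 groups alone (-2.34, 0.101), in which Cht4 was not called either (-2.39, 0.0924).

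Other tissue markers moved along with both gradients. Of 4 green tissue genes measured 3 were lower at the base of internode and sheath, CAB2R being the exception. Their summed signal was 45000 to 50800 at the internode base and 102000 to 105000 at its top, and 47000 to 55200 against 83600 to 95200 in the sheath. All 3 secondary wall cellulose synthase genes were higher at both bases, with summed signals of 51500 to 60900 against 703 to 1350 in the internode and 1960 to 8240 against 110 to 168 in the sheath. No marker of these lists was at 0, and their part in the chitinase differences was not tested.

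In the flag blade the base did not differ from the tip for any of the 6 genes at the threshold, where 0.468% of probe sets were called. In limma's fit only Cht4 and Cht11 had an unadjusted p under 0.05, with differences of 2.04 ± 0.61 (adjusted p = 0.175) and 0.87 ± 0.40 (adjusted p = 0.489). Of the green tissue genes 0 of 4 were called here, where few of all probe sets were (0.468%), and their part was not tested. The tip arrays were farthest apart for 3 genes: Cht8 read 12.68, 10.11 and 7.70, Cht5 9.95, 7.67 and 5.76, and Cht4 8.32, 6.90 and 5.83. In all 3, replicate 1 was highest and replicate 3 lowest, and the SD was 2.49 for Cht8, 2.10 for Cht5 and 1.25 for Cht4, against a median SD of 0.34 over all probe sets tested at the tip. Cht11 had the same order of replicates, at 12.70, 12.02 and 10.81, with an SD of 0.96. So had Cht7, at signals too low to rank.

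The middle of the blade was less variable, with Cht8 at 10.78, 10.24 and 10.15 and Cht5 at 10.66, 10.56 and 10.99. Against the mean of both ends 0 genes were called, where 0.432% of probe sets were. Cht4 differed by 2.18 ± 0.53 (adjusted p = 0.0625), Cht5 by 2.27 ± 0.63 (adjusted p = 0.104) and Cht11 by 0.86 ± 0.35 (adjusted p = 0.293), and these 3 had an unadjusted p under 0.05. Without tip replicate 1 both Cht4 (2.51, adjusted p = 0.0154) and Cht5 (2.81, 0.00974) were called, and Cht4 was also called without blade base replicate 3 (2.27, 0.0466), on the deposited scale (2.29, 0.0498) and with a trended and robust prior (2.18, 0.0381).

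The gradients themselves were also set against each other with an interaction term, added after the data were seen. Relative to internode I, the base-to-tip difference of the blade was higher for 4 genes (Cht4, Cht5, Cht8 and Cht11), where 16.6% of probe sets were. Relative to the sheath it was higher for 5 genes, Cht6 as well, where 7.84% were. Without sheath base replicate 2 the calls of Cht5 (3.19, adjusted p = 0.136), Cht6 (3.25, 0.206) and Cht8 (4.19, 0.099) ended, that of Cht5 ended without blade tip replicate 3 (2.66, 0.0591), and that of Cht6 ended without any 1 array of these groups except sheath base replicate 1. Between internode and sheath no gene's gradients were called different, where 17.3% of probe sets were; Cht5 came nearest, with -2.56 ± 1.09 (adjusted p = 0.102).

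**Figure D3:**
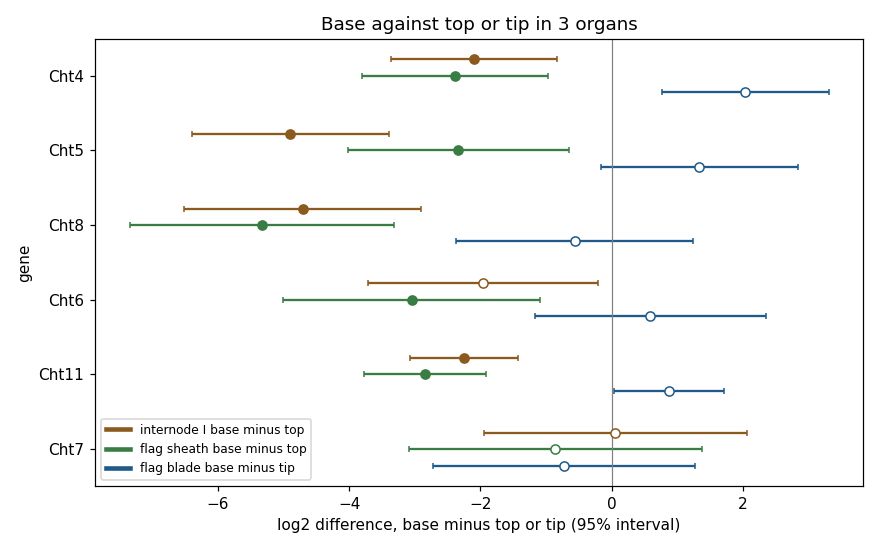
Difference in log2 signal between base and top of internode I, base and top of the flag leaf sheath, and base and tip of the flag leaf blade (x axis) for each gene (y axis); bars are 95% intervals and filled points were called. Cht4, Cht5, Cht8 and Cht11 lie below 0 with filled points in internode and sheath, and no blade difference was called.

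Cht6 and Cht11 had their highest means in the middle of the flag blade. Cht11 read 13.26, 13.07 and 13.09 in the middle of the flag blade, 12.67, 12.61 and 12.87 at its base and 12.70, 12.02 and 10.81 at its tip. Its means in the sheath top (12.71) and node II (11.90) were as high as those of the blade base (12.71) and tip (11.84), and these neighbours did not differ by the test. It stayed above the median of all values on all 35 arrays and was lowest at the internode base (8.25, 7.77 and 7.96). The flower was next lowest and still above the internode base by 1.03 ± 0.40 (adjusted p = 0.0396), with no overlap of arrays and 16.5% of probe sets higher, the only neighbours in the order of Cht11 that differed. On log2(signal + 16) that difference was 0.98, just under the 2-fold limit.

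Cht6 read 10.51, 9.55 and 10.35 in the blade middle, 10.20, 9.77 and 9.62 at the base and 8.95, 9.70 and 9.17 at the tip. Its lowest group was node I, at 2.14, 4.43 and 2.89, where signals are too low to rank. No neighbours in its order differed, although the 3 sheath top arrays (mean 8.14) lay above all 3 internode top arrays (mean 6.64). The genes most like Cht6 were MTP5 (r = 0.966), FTSH7 (r = 0.966) and the thioredoxin gene OsTrx03 (r = 0.965). Those most like Cht11 were BIMK2 (r = 0.961), OsPRR95, a pseudo-response regulator gene of the circadian clock family (r = 0.947), and cpdk (r = 0.936).

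Against the middle of the flag blade the flower was lower in Cht6 (-4.57 ± 0.85, adjusted p = 8.46e-05, and -3.97 on log2(signal + 16)) and Cht11 (-4.12 ± 0.40, adjusted p = 1.34e-08), where 16.7% of probe sets were higher and 20.7% lower. Cht4 (0.62 ± 0.61, adjusted p = 0.425), Cht5 (0.59 ± 0.73, adjusted p = 0.525) and Cht8 (-0.35 ± 0.87, adjusted p = 0.764) did not pass. Between the base of the flag blade and the top of its sheath, which meet at the collar, Cht4 fell by 3.52 (adjusted p = 0.000363) and Cht5 by 3.35 (adjusted p = 0.00272) on the blade side, where 5.12% of probe sets were lower. Cht11 had a mean of 12.71 on both sides, with a 95% interval of the difference from -0.83 to 0.83. Cht6 was at 9.86 and 8.14 (1.72 ± 0.85, adjusted p = 0.195). It was called on log2(signal + 16) (1.66, adjusted p = 0.0415) and in the fit of these 2 groups alone (1.72, 0.0133).

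The nodes, the joints where leaf and stem bundles meet, shifted the 6 genes in both directions against the flag blade. Cht4 (2.77 ± 0.40, adjusted p = 1.79e-06) and Cht5 (1.81 ± 0.47, adjusted p = 0.00183) were higher in the nodes. The blade mean joins unlike zones, and Cht5 in the blade middle (10.73) was no lower than in node I (10.50). Cht6 was lower in the nodes (-5.73 ± 0.55, adjusted p = 3.07e-09, and -4.65 on log2(signal + 16)), where all its arrays lay under the median of all values. The call of Cht7, given above, rests on signals too low to rank. Cht8 (-2.31 ± 0.56, adjusted p = 0.00103) and Cht11 (-1.62 ± 0.26, adjusted p = 8.19e-06) were lower as well. The mean of Cht11 in node II (11.90) was no lower than at the blade tip (11.84), and the tip arrays of Cht8 ran from 7.70 to 12.68. Over all probe sets 19% were higher and 19.1% lower in this comparison, among them 3 of 4 green tissue genes lower and 3 of 3 secondary wall genes higher, whose part was not tested.

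Against internode I, top and base averaged, the nodes were higher in Cht11 (1.83 ± 0.28, adjusted p = 1.37e-05), Cht4 (1.51 ± 0.43, adjusted p = 0.00681) and Cht5 (1.47 ± 0.51, adjusted p = 0.0242), and lower in Cht6 (-1.63 ± 0.60, adjusted p = 0.0309, and -1.12 on log2(signal + 16)), where 11.5% of probe sets were higher and 10.8% lower. The internode mean joins unlike ends: Cht5 had means of 11.57 in node II and 10.50 in node I, between the internode top (12.02) and its base (7.12), and 0 of 6 node arrays lay above all internode arrays. In node I the means of Cht11 (9.98) and Cht4 (11.07) were no higher than at the internode top (10.24 and 11.07). The mean of Cht6 in node II (4.90) was no lower than at the internode base (4.68). Cht5 was not called without internode top replicate 2 (1.25, adjusted p = 0.0698), internode base replicate 2 (1.10, 0.0869) or node I replicate 3 (1.22, 0.0741). Cht6 was not called without internode top replicate 3 (-1.46, 0.0729), internode base replicate 1 (-1.05, 0.122), node I replicate 1 (-1.38, 0.0864) or 3 (-1.56, 0.0588), node II replicate 1 (-1.51, 0.067) or 3 (-1.60, 0.0544), nor in the fit of these 4 groups alone (-1.63, 0.0865).

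Node I and the internode base just above it are adjoining tissues. Cht5 was 10.4-fold higher in node I (3.38 ± 0.73, adjusted p = 0.000585), Cht4 4.27-fold (2.09 ± 0.61, adjusted p = 0.00777) and Cht11 3.98-fold (1.99 ± 0.40, adjusted p = 0.000298). All 3 node arrays lay above all base arrays for these genes, and 16.2% of probe sets were higher. Cht8, at 7.26, 7.41 and 7.69 in node I, did not pass (2.11 ± 0.87, adjusted p = 0.0544), but did so without internode base replicate 1 (3.19, 0.00485), on the deposited scale (2.22, 0.043), with array medians set equal (2.36, 0.0318), with a trended and robust prior (2.11, 0.0483) and by its second probe set (2.79, 0.0278). Without internode base replicate 2 Cht4 lost its call (1.31, 0.0847) and Cht6 was called (-2.56, 0.0177), and in the fit of these 2 groups alone Cht4 was not called (2.09, 0.083).

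Between node I and the sheath base 0 genes were called, where 10.4% of probe sets were. Cht8 (2.01 ± 0.98, adjusted p = 0.17) and Cht6 (-1.94 ± 0.95, adjusted p = 0.175) came nearest, and 0 of the 6 genes had an unadjusted p under 0.05. Node II differed from node I in Cht11, at 12.40, 11.26 and 12.04 against 10.54, 9.84 and 9.57, without overlap (1.91 ± 0.40, adjusted p = 0.0454), where 0.0724% of probe sets were higher. The other 5 did not pass. For Cht4 and Cht5 all 3 node II arrays also lay above all node I arrays, but by little. The lowest node II array was at 11.85 against a highest node I array of 11.81 for Cht4, and at 11.54 against 11.48 for Cht5. The call of Cht11 ended without node I replicate 1 (2.19, adjusted p = 0.0544), 2 (1.84, 0.0999) or 3 (1.71, 0.182), without node II replicate 1 (1.66, 0.143) or 3 (1.85, 0.121), on the deposited scale (1.82, 0.0604), with no filter (1.91, 0.0731), with array medians set equal (1.59, 0.109) and in the fit of the nodes alone (1.91, 0.271).

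Cht8 was broad in the upper plant and low at the bases of internode and sheath. Of 11 groups, 7 had means from 9.60 to 10.88, led by the panicle branch (10.85, 11.53 and 10.25), and no neighbours in that order differed. Node II (8.54, 8.24 and 7.30) and node I followed, and the sheath base and internode base were lowest, at means of 5.44 and 5.34. The genes most like Cht8 were CYP701A8 (r = 0.931) and CPS2 (r = 0.907), which encode enzymes of diterpenoid synthesis, and GT43G (r = 0.915), whose group means spanned only 7.49 to 8.72.

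A second Cht8 probe set followed the one used at r = 0.98 over 35 arrays, and their group means differed by at most 0.52, at the internode base. The third did not follow them. It stayed at 0.03 to 6.07, below the median of all values on 33 of 35 arrays, was highest in node II (mean 5.42) and lowest in the blade middle (0.16), and was too dim to be tested.

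In the whole blades, with 1 array each and no test, Cht4, Cht5, Cht8 and Cht11 read lower in leaf 2 than in the flag leaf and lower again in leaf 4, an order that 17.2% of all probe sets tested had. Cht7 was too low to rank. Cht4 read 9.22 in the flag leaf, 6.25 in leaf 2 and 3.29 in leaf 4. Cht5 had the same order, at 10.36, 6.98 and 4.06. Cht8 read 10.88, 8.56 and 7.47, and Cht11 13.19, 11.75 and 10.73. Cht6 had no such order, with 9.92 in the flag leaf, 8.29 in leaf 2 and 11.23 in leaf 4, its highest value on any of the 35 arrays. For Cht4 and Cht5 the leaf 4 array was the lowest of all 35.

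**Figure D4:**
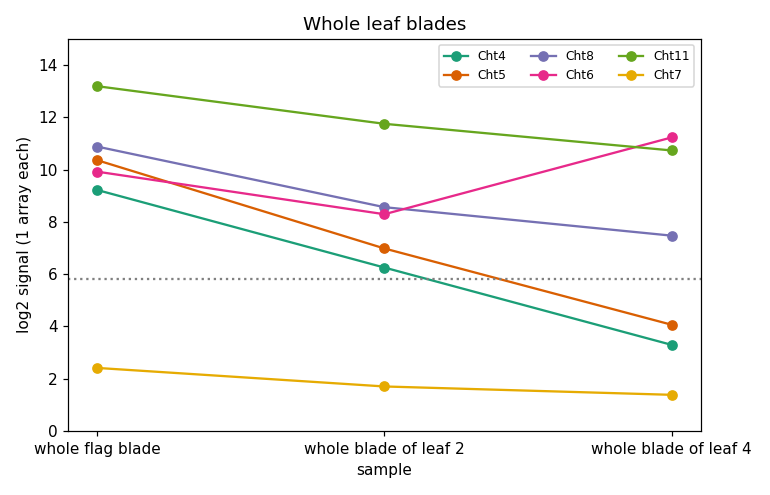
Log2 signal (y axis) of the 6 chitinase genes on the single arrays of the whole flag blade and the whole blades of leaf 2 and leaf 4 (x axis); the dotted line is the median of all values (5.83). Cht4, Cht5, Cht8 and Cht11 descend from flag leaf to leaf 4, Cht6 ends at 11.23, and Cht7 stays under the dotted line.

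Other genes of chitin response were followed as lists, of which many names found no match. Of 5 other chitinase and chitinase-like genes measured, 3 were higher in the flower than in the panicle branch and 0 lower. Of all probe sets 12.7% were higher and 15.9% lower. The 3 were Cht1/Cht9, Cht1 (by 1.47 ± 0.44) and RIXI, a chitinase-like xylanase inhibitor (by 5.33 ± 1.18, or 2.46 on log2(signal + 16), as its panicle branch mean was 1.03). The plain name Cht1 stands here for a different gene that shares the name, the direct neighbour of Cht3, and not for the Cht1/Cht9 gene beside Cht7. RIXI was also higher in the nodes than in internode I (6.26 ± 0.84, adjusted p = 1.81e-06, and 3.94 on log2(signal + 16)). Its means were 8.65 and 8.29 in nodes I and II, and 1.67 and 2.76 at the internode top and base, under the median of all values. Along the sheath, Cht1 (-2.61 ± 0.49, adjusted p = 0.000341) and Cht3 (-2.26 ± 0.77, adjusted p = 0.0316) were lower at the base, where 9.03% of all probe sets were lower. So were 5 of the 6 genes above. The rest of this list was not lower there, with RIXI at 1.96, Cht1/Cht9 at 0.57 and Cht10 at 0.08, none of them called. The call of Cht3 ended without any 1 of the 5 sheath arrays (-2.38 to -2.11, adjusted p = 0.0507 to 0.154). Along the internode neither Cht1 nor Cht3 was called. Cht1/Cht9, though called (2.67 ± 1.07, adjusted p = 0.0439), had all internode arrays under the median of all values and was not called on log2(signal + 16) (1.07, 0.0743). That call also ended without any 1 of 5 arrays, all but internode base replicate 1 (2.14 to 2.95, adjusted p = 0.0549 to 0.161). Both probe sets of Cht3 carry the array's mark for possible cross-hybridization, so Cht3 may hold signal of related genes.

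Of 7 genes of chitin perception and signalling measured, 2 were higher and 1 lower in the flower than in the panicle branch. Of all probe sets 12.7% were higher and 15.9% lower in this comparison. CEBiP was higher by 1.04 ± 0.31 (adjusted p = 0.00815), but not at 2-fold without flower replicate 1 or 3 or panicle branch replicate 2 or 3 (0.99, 0.86, 0.88 and 0.76). RBOHB, an NADPH oxidase gene, was lower (-1.45 ± 0.21, adjusted p = 7.33e-06), and LYP4, a LysM receptor gene, was higher (2.39 ± 0.47, adjusted p = 0.000259). CEBiP had group means from 9.24 to 10.57 and the kinase gene MPK6 from 10.58 to 11.22. LYP4 was called higher at the sheath base (1.94 ± 0.53, adjusted p = 0.00799), but its 2 base arrays read 8.04 and 11.14, and without base replicate 2 the difference was 0.39 (adjusted p = 0.659), while without base replicate 1 it was 3.48. It was also higher in the nodes than in internode I (2.60 ± 0.34, adjusted p = 1.07e-06). Of 4 other defence genes measured, PBZ1, a pathogenesis-related protein gene, was lower at the base of the internode (-1.76 ± 0.33, adjusted p = 0.000103) and of the sheath (-3.36 ± 0.37, adjusted p = 8.89e-07), as were Cht4, Cht5, Cht8 and Cht11. Of all probe sets 18.7% and 9.03% were lower there. At the sheath base WRKY76 (1.68), GLU1 (0.42) and WRKY62 (-0.33) were not called. At the internode base WRKY62 was called lower (-1.40), but not without top replicate 3 (-0.74) or base replicate 2 (-1.18), and WRKY76 was not called (0.35). The transcription factor gene WRKY76 was lower in the flower than in the panicle branch (-3.94 ± 0.75, adjusted p = 0.000159), and GLU1, also the name of an endoglucanase gene of wall growth, was higher at the internode base (1.09 ± 0.19, and 0.98, under 2-fold, without base replicate 1).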

How the data were processed

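Expression was read on 1-colour Affymetrix Rice Genome Arrays. The authors' deposited signal intensities are linear, from 0.0536 to 66643, with a trimmed mean of 500.06 to 500.08 on each array (2% off each end), as the values show; the sources used here do not name the software. All 35 columns had a sample (0 without). Values were floored at 1, taken to log2 and quantile normalized over all arrays, since array medians ran from 5.39 to 6.36. Without 187 control and reporter probe sets, a probe set was tested if 3 or more replicated arrays reached 5.83, the median of all values.

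One mean per group was fitted by limma 3.58.1 (lmFit, eBayes) under R 4.3.3 (21 residual and 1.64 prior degrees of freedom), with Benjamini-Hochberg adjustment over all 38666 probe sets within each of 13 comparisons and 55 pairs of groups. The number of arrays limits precision. The steps were tested on simulated data.

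Genes were named from the platform annotation (22531 probe sets listed, 22436 with 1 gene, 95 with several and 34850 not listed) and the RefSeq table of assembly ASM3414082v1. Its coordinates are not printed, because no source names the build behind the probe annotation. Genes named are the 6 members, the 3 most alike named genes for each, and matched genes of the lists. Of the names listed, 5 other chitinases, 7 perception genes and 4 other defence genes were matched and measured. Markers were 5 floral MADS, 4 green tissue, 3 secondary wall and 3 node transporter genes. Members and lists were chosen with earlier results of these data known. Comparisons share groups, so their values are not independent. Alternatives were the deposited scale, equal array medians, log2(signal + 16), no filter, fits of the compared groups alone, leaving out each replicate, the replicate block and a trended, robust prior.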

Additional observations from a re-analysis of the deposited data

Results flagged for a closer look

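The base-minus-top difference was compared between organs with an interaction term in the same limma fit. The interactions that passed set the flag blade (base minus tip) against a stem or sheath gradient. Against internode I, the blade difference was greater by 4.13 for Cht4 (adjusted p = 0.000655), 6.24 for Cht5 (adjusted p = 5.18e-05), 4.15 for Cht8 (adjusted p = 0.0108) and 3.12 for Cht11 (adjusted p = 0.000152). Cht6 did not pass (2.55, adjusted p = 0.104) but did without internode base replicate 1 (3.71, 0.00991), and Cht8 was not called in the fit of the 4 groups alone (4.15, 0.105).

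Against the flag sheath the blade difference was greater by 4.43 for Cht4 (adjusted p = 0.00177), 3.68 for Cht5 (adjusted p = 0.0202), 3.64 for Cht6 (adjusted p = 0.0477), 4.77 for Cht8 (adjusted p = 0.0126) and 3.71 for Cht11 (adjusted p = 0.000213). Leaving out any array of these 4 groups but sheath base replicate 1 ended the call of Cht6 (3.25 to 3.85, adjusted p = 0.0552 to 0.206), as did fitting with no filter (3.64, 0.0746). Without sheath base replicate 2 the calls of Cht5 (3.19, 0.136) and Cht8 (4.19, 0.099) ended too, as they did in the fit of the 4 groups alone (3.68, 0.14, and 4.77, 0.0995). Without blade tip replicate 3 that of Cht5 ended (2.66, 0.0591). The tip arrays were far apart for Cht5 and Cht8, and less so for Cht4 and Cht11, and the sheath base had 2 arrays.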

How the results depend on the processing

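The number of the 6 genes called kept within 1.5 times its main value for the other comparisons and settings, with these exceptions. Node II against node I went from 1 to 0 on the deposited scale, with equal array medians, with no filter and with only the groups compared. Blade middle against both ends went from 0 to 1 on the deposited scale and with a trended, robust prior. Panicle branch against internode top went from 0 to 2 on log2(signal + 16) and with the trended, robust prior, and to 1 with the replicate block. Sheath base against top went from 5 to 3 with only the groups compared. Leaving out each replicate gave 3 to 5 genes for flower against panicle branch, 0 to 2 for panicle branch against internode top, 2 to 4 for nodes against internode I, 0 to 1 for node II against node I, 0 to 2 for the blade middle and 2 to 5 for the sheath.

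Same-numbered arrays of different groups did not deviate together (median r = 0.008, -0.106 to 0.14 over 155 pairs, 3 over 0.1), so the numbers were not taken as pairs. With the replicate block Cht8 was called between node I and internode base (2.11, adjusted p = 0.0329) and Cht11 between panicle branch and internode top (1.36, 0.0441), and the blade-to-sheath interaction of Cht6 was not (3.62, 0.0614).

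Of the single differences recomputed, 47 lost and 10 gained a call without 1 array, and 18 lost and 14 gained one under other settings. No called difference changed sign, but 37 that were not called did. The median of all probe sets was -0.17 for flower against blade middle, -0.50 with array medians set equal and 0.10 on the deposited scale. For the list genes, leaving out replicates and log2(signal + 16) were chosen after seeing the data. No detection flags were used, so levels under 5.83, such as Cht7 outside the flower, have no reliable order.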
